A study of Mus musculus with 13 samples.

Results

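The replication-dependent histone genes were followed in mouse round spermatids in which Sly, Slx/Slxl1 or both had been knocked down. Members were every gene on the array whose symbol, current or older, began with Hist1h, Hist2h, Hist3h or Hist4h or belonged to the H1f, H2ac, H2bc, H3c and H4c families. The testis-specific H1f6, H2ac1 and H2bc1 were left out. This gave 57 of the 19057 named genes on the array, measured by 87 of its 45281 probes. Of these, 5 genes encoded the linker histone H1, 16 encoded H2A, 14 encoded H2B, 9 encoded H3 and 13 encoded H4. In mouse genome build GRCm38.p6, 44 of the genes lay on chromosome 13, 9 on chromosome 3, 3 on chromosome 11 and 1 on chromosome 6.

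These genes supply the histones that package newly copied DNA, and dividing cells express them mainly in S phase. H2A, H2B, H3 and H4 form the core particle around which DNA is wound, and H1 binds the DNA between particles. Their mRNAs mostly end in a stem-loop instead of a poly(A) tail, whereas the replacement histones are made from polyadenylated mRNAs outside S phase. Round spermatids have finished meiosis and do not copy DNA, and at a later stage they exchange most histones for protamines.

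The study compared round spermatids of young adult males of about 8 weeks on the MF1YRIII background, separated from testis by centrifugal elutriation or by sedimentation. WT males carried no transgene (4 arrays). Males labelled shSLY carried a transgene expressing a short hairpin RNA against the Y-linked gene Sly (3 arrays), shSLX1 males carried one against the X-linked genes Slx and Slxl1 (3 arrays), and shSLX1shSLY males carried both (3 arrays). SLY is known to repress X and Y genes in spermatids, and SLX/SLXL1 to oppose it. These were knockdowns and not deletions, each array held RNA of 1 spermatid batch pooled from several males, and no promoter of the transgenes is named in the sources used here. In cells sorted in bulk, fewer cells of a type and less RNA per cell cannot be told apart.

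All 8 round spermatid markers tested were detected on all 13 arrays and none of them was called in any comparison. The Sly probe read between 9.85 and 10.35 (log2 intensity) in WT between 10.08 and 10.71 in shSLY, between 8.65 and 10.21 in shSLX1 and between 10.30 and 10.63 in shSLX1shSLY, so that it was not lower in either genotype carrying the shSLY transgene and did not check the labels. Arrays of a group correlated at 0.97 or above over the 20250 probes that passed the detection filter. The signals of 20382 probes that were detected on no array nevertheless fell into 3 sets of arrays that crossed the genotypes. The first set held WT 1, WT 2, shSLY 1 and shSLY 2, the second held WT 3, WT 4, shSLX1 1 and shSLX1 2, and the third held shSLY 3, shSLX1 3 and all 3 shSLX1shSLY arrays. No label names these sets. Earlier work on some of the batches had, per the methods, 4 WT, 2 shSLY and 2 shSLX1 of them, which are the numbers of each genotype in the first 2 sets together, but which arrays they were is not named. The third set held no WT array, so for shSLX1shSLY against WT the set and the genotype cannot be told apart.

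Of the 57 genes, 43 passed the detection filter and were tested, namely 2 H1, 12 H2A, 9 H2B, 8 H3 and 12 H4 genes. Of these, 34 were detected on all 13 arrays. The 14 genes that were not tested were H1f1, H1f3, H1f4, H2ac4, H2ac6, H2ac8, H2aw, H2bc3, H2bc8, H2bc18, H2bu2, the pseudogene H2bu1-ps, H3c3 and H4c14. The labelling reaction started from poly(A) tails, so the polyadenylated part of each histone mRNA was what the arrays could see. Members of a core type (H2A, H2B, H3 or H4) encode nearly identical proteins, and a probe may share signal between them. Probe sequences were not used here, so each gene name is that of the probe's annotation.

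The start regions of genes on which the results turn were read from RefSeq on GRCm38.p6. Each line is the 180 bases that precede the annotated start, 5′ to 3′ on the strand of the gene, for 3 H3 genes, for H4f16 and for H2ac7. Of the H3 genes, H3c4 and H3c6 shared a pattern over the groups and H3c10 followed another. Capitals mark matches to CCAAT or its reverse complement ATTGG, and to TATAA or its reverse complement TTATA.
H3c4, chr13:23575583-23575762, plus strand: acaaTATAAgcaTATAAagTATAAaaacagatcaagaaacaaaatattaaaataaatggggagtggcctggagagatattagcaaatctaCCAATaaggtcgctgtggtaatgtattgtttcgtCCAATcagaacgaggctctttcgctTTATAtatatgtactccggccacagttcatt
H3c6, chr13:23562386-23562565, minus strand: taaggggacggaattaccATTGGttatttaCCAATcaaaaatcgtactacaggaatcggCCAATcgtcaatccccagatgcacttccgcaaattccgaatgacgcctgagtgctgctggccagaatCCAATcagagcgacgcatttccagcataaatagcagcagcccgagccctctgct
H3c10, chr13:21717448-21717627, plus strand: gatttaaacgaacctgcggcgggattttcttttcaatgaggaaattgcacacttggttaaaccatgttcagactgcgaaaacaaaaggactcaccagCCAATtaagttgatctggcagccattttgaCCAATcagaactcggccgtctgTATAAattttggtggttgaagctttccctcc
H4f16, chr6:136804432-136804611, minus strand: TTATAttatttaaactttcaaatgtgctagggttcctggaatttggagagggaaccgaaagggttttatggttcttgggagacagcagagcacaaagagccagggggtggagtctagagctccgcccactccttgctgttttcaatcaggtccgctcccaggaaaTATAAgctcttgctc
H2ac7, chr13:23574201-23574380, plus strand: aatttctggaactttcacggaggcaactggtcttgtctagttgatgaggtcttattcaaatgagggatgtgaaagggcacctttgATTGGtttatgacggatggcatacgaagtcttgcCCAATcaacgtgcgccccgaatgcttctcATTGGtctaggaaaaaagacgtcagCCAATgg

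CCAAT is the box bound by NF-Y, TATAA is the core of the TATA box, ATTTGCAT is the octamer bound by Oct1, and AAACACA is the box known from H1 promoters. Over windows of 300 bases around the start, read on both strands, CCAAT was found in every window of H1 (5 of 5), H2A (16 of 16), H2B (12 of 12) and H3 (7 of 7), but in 3 of 12 H4 windows. Over all 32851 promoter windows of the reference it was found in 37.4%. TATAA and its reverse complement, which can overlap each other, were found in 11 of 12 H4, 14 of 16 H2A, 9 of 12 H2B, 4 of 5 H1 and 3 of 7 H3 windows, against 24.9% of all windows. The octamer (or ATGCAAAT) was in 6 of 16 H2A and 6 of 12 H2B windows and in no other member, against 1.74% of all windows. AAACACA (or TGTGTTT) was in 4 of 5 H1 windows, 1 H2A window and 1 H2B window, against 7.18% of all windows. These are matches of letters and not sites of binding. Sequences were found for 51 members, and H2bu1-ps, H3c1, H4c14, H2bc4, H3c7 and H2bc21 had none in the table used. H2bc6 had 2 start sites and so 2 windows.

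Most of the differences called between genotypes were in histone H3 genes. A gene was called when its adjusted p was under 0.05 and its fold change was over 1.5. In shSLY spermatids 5 of the 43 members rose against WT, which were H3c1, H3c4, H3c6 and H3c7, all encoding H3, and H2bc21, and none fell. This was 11.6% of the members, where 2.33% of all 14660 genes tested were called higher and 0.75% were called lower. On 14 members the 3 shSLY arrays lay wholly above the 4 WT arrays and on none wholly below, where 8.59% and 8.71% of all genes did so. The difference was above 0 for 36 of the 43 members, against 47.5% of all genes, 18 members had an unadjusted p under 0.05, against 15.1% of all genes, and the median difference was 0.36 on the log2 scale, against -0.02 over all genes. By type the median log2 difference was 0.59 for H3, 0.50 for H2A, 0.39 for H4, 0.21 for H1 and -0.01 for H2B.

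In shSLX1 spermatids no member was called by limma against WT, where 1.67% of all genes were called higher and 0.109% were called lower. At an unadjusted p under 0.05 there were 11 members, against 12.1% of all genes, and the difference was above 0 for 12 of the 43 and below for 31, against 47.4% above 0 over all genes. All 3 shSLX1 arrays lay below all 4 WT arrays on 9 members, which included H3c1, H3c4, H3c6 and H3c7, and above them on none, against 5.79% and 6.55% of all genes. The median log2 difference was -0.40 for H3, -0.24 for H4, -0.21 for H2B, 0.05 for H1 and 0.11 for H2A.

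In shSLX1shSLY spermatids 6 members rose against WT and none fell, where 4.86% of all genes were called higher and 4.03% lower. They were the H3 genes H3c4, H3c6, H3c10, H3c13 and H3c14, and the H4 gene H4f16. With arrays scaled by their median instead of quantile normalized, this split of 6 higher and 0 lower became 0 higher and 5 lower. The median log2 difference was 0.62 for H3, 0.14 for H1, -0.01 for H4, -0.16 for H2A and -0.32 for H2B in the fit without the array set. The difference was above 0 for 20 of the 43 members, against 48% of all genes, and 15 members had an unadjusted p under 0.05, against 31% of all genes. The arrays lay wholly above WT on 14 members and wholly below on 6, against 16.8% and 18% of all genes. This comparison is the one in which genotype and array set cannot be told apart, and with the set as a block in the fit no member was called. The medians were then 0.34 for H3, 0.13 for H1, 0.39 for H4, 0.46 for H2A and 0.054 for H2B, so that H2A and H2B changed sign and H2A was the highest.

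Against shSLX1, 9 members rose in shSLX1shSLY and none fell, where 3.56% of all genes were called higher and 3.98% lower. They were H3c1, H3c4, H3c6, H3c7 and H3c10, the H2B genes H2bc4 and H2bc21, and the H4 genes H4c11 and H4f16. The median log2 difference of the 8 H3 genes was 0.77, against 0.37 for H4, 0.09 for H1, 0.07 for H2A and -0.13 for H2B, which became 0.054 with the array set as a block. The difference was above 0 for 30 of 43 members (49.8% of all genes), 15 members had an unadjusted p under 0.05 (25.8% of all genes), and the arrays of the 2 groups did not overlap on 16 members that were higher and 5 that were lower (12.7% and 13.6% of all genes). Against shSLY, limma called no member, where 0.102% of all genes were called. At an unadjusted p under 0.05 there were 13 members, against 20.3% of all genes, and the difference was above 0 for 8 of 43 and below for 35, against 47.8% above 0 over all genes. The arrays did not overlap on 2 members that were higher and 9 that were lower, against 10.5% and 11.4% of all genes. The comparisons of one genotype with another share arrays with those against WT and are not independent of them.

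**Figure D1:**
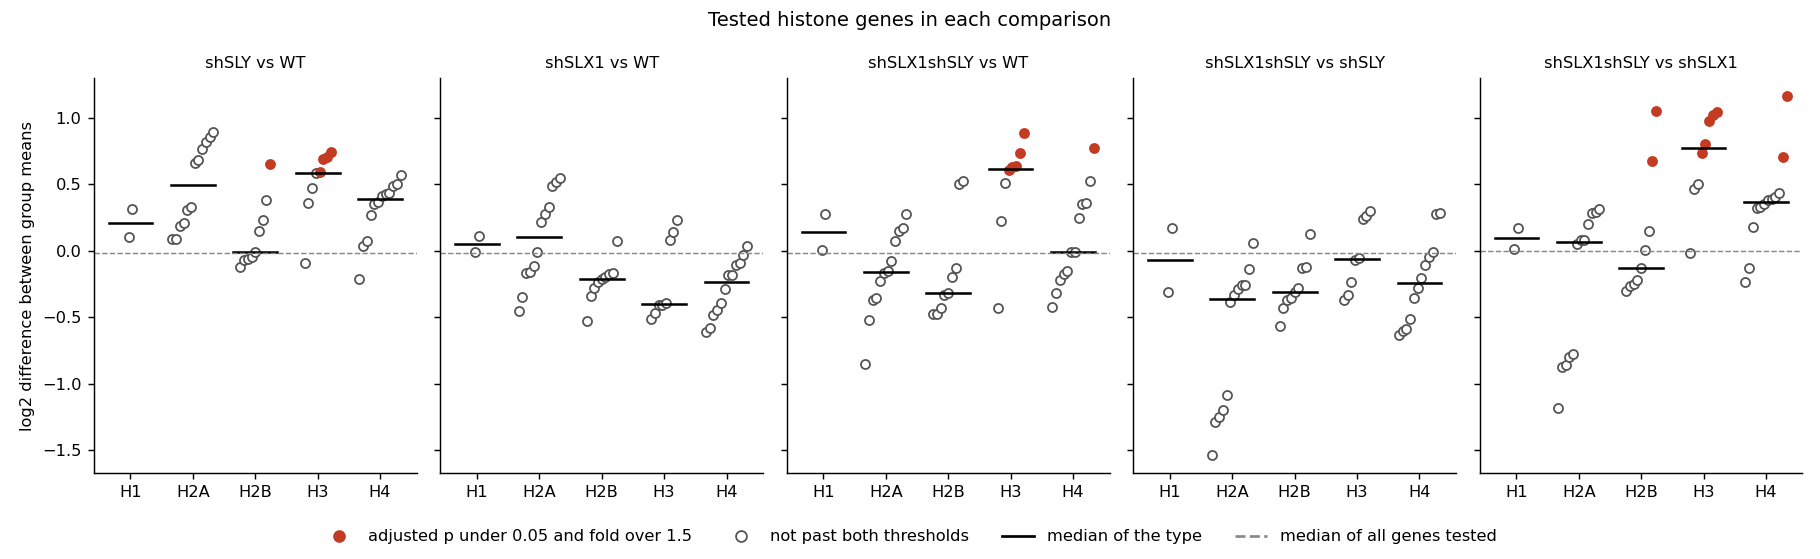
Log2 difference of each of the 43 tested histone genes in 5 comparisons, arranged by histone type. Each point is 1 gene, filled red where it was called, the black line is the median of the type and the dashed line is the median of all genes tested. In shSLY against WT, 4 of the 8 H3 genes are red.

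Array by array, the median of the H3 genes kept the genotypes apart from WT. The median over the 8 H3 genes of the log2 difference from the WT mean ran from -0.04 to 0.04 in WT. In shSLY its values were 0.49, 0.52 and 0.77, in shSLX1 they were -0.19, -0.46 and -0.36, and in shSLX1shSLY they were 0.51, 0.73 and 0.54. No shSLY or shSLX1shSLY array therefore came within the range of WT for the H3 median, and no shSLX1 array reached it from below. In shSLX1 the H3 genes did not all follow it. The median of H3c10, H3c13 and H3c14 read 0.03, -0.12 and 0.58 there, with WT at -0.08 to 0.15. For H4 the shSLY arrays read 0.46, 0.49 and 0.08, where WT reached 0.10, so that shSLY 3 overlapped WT. For H2A the shSLY arrays read 0.35, 0.83 and -0.06 and the WT arrays -0.28 to 0.23, and for H2B they read 0.14, 0.24 and -0.33, with WT between -0.08 and 0.15. Array shSLY 3 was thus the highest of its group for H3 and the lowest for H2A, H2B and H4. For H1 the 3 shSLY arrays read 0.06, 0.34 and 0.24, and WT reached 0.11.

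**Figure D2:**
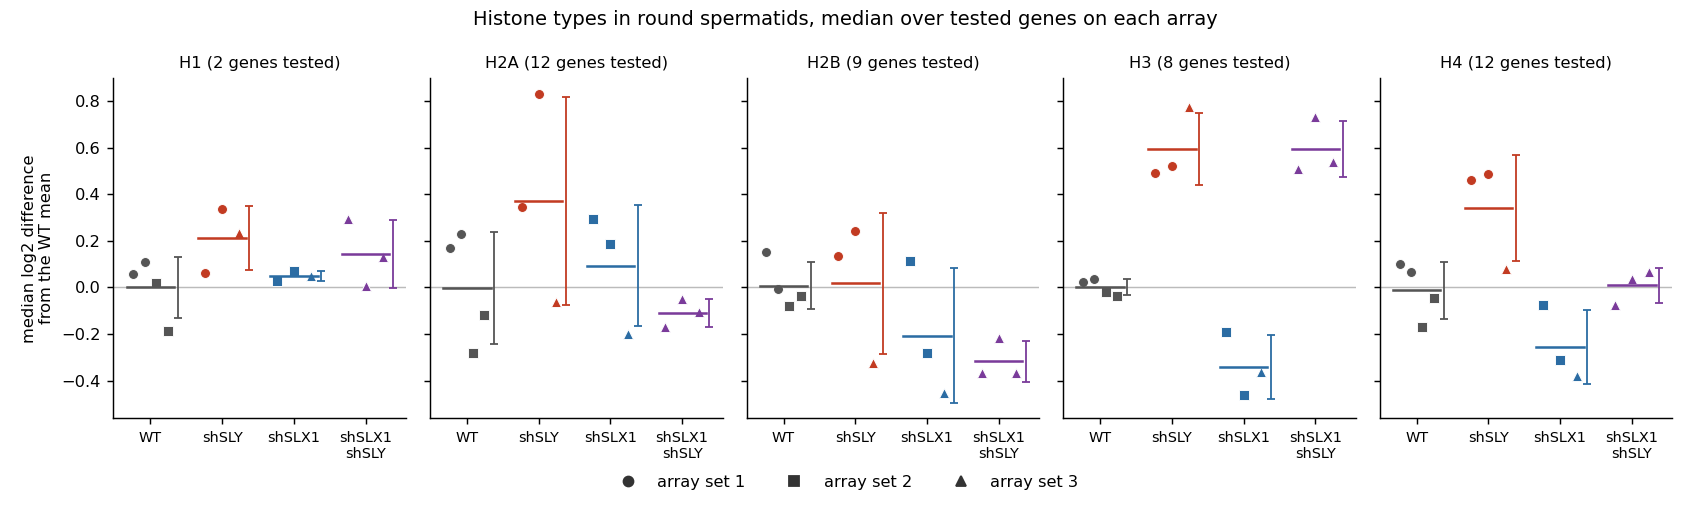
Median log2 difference from the WT mean over the tested genes of each histone type, 1 point per array, with the group mean (line) and SD (bar). H3 shSLY arrays lie at 0.49 to 0.77 and shSLX1 arrays at -0.46 to -0.19, apart from WT, while the groups overlap for H2A.

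These values also depended on the scale on which arrays are made comparable. Quantile normalization, which was used throughout, set the median difference of all genes to between -0.02 and 0.00 in the 5 comparisons. Scaling each array by its median alone moved it to -0.08 in shSLY, -0.27 in shSLX1 and -0.35 in shSLX1shSLY against WT. Relative to the median of all genes, the H3 median in these 3 comparisons was 0.52, -0.32 and 0.51 under median scaling and 0.61, -0.38 and 0.64 under quantile normalization. The H2A median in shSLX1 turned from 0.11 to -0.25 and the H1 median from 0.049 to -0.028. Under median scaling no member was called in shSLY against WT, and in shSLX1shSLY against WT none was called higher while 5 H2B genes were called lower, namely H2bc6, H2bc7, H2bc11, H2bc12 and H2bc14, at -0.93 to -0.64.

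H3c1, H3c4, H3c6 and H3c7 lie on chromosome 13 and rose together in shSLY. H3c1 (Hist1h3a, 23761885 to 23762386) read 9.29, 9.29, 9.27 and 9.20 (log2 intensity) in WT, 9.98, 10.03 and 10.01 in shSLY, 9.0, 8.73 and 8.67 in shSLX1 and 9.72, 10.07 and 9.53 in shSLX1shSLY. The 4 groups stood in the order shSLX1, WT and then both genotypes with shSLY, whose arrays overlapped each other only. It was 1.67-fold higher in shSLY than in WT (log2 difference 0.74, SE 0.14, adjusted p = 0.00806) and 1.97-fold higher in shSLX1shSLY than in shSLX1 (0.98, SE 0.15, adjusted p = 0.00112). In shSLX1 its log2 difference from WT was -0.47 (SE 0.14, adjusted p = 0.152). Against WT, shSLX1shSLY differed by 0.51 with an adjusted p of 0.0376, which was short of the fold threshold.

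H3c6 (Hist1h3e, 23561475 to 23562385) gave the smallest p of the members in shSLY against WT. It read 9.87, 10.14, 9.99 and 10.05 in WT, 10.61, 10.68 and 10.81 in shSLY, 9.70, 9.54 and 9.58 in shSLX1 and 10.57, 10.84 and 10.54 in shSLX1shSLY. Every array of the 2 genotypes carrying the shSLY transgene was above every WT array, and every shSLX1 array was below. The fold change was 1.61 in shSLY (log2 difference 0.69, SE 0.13, adjusted p = 0.00665) and 1.56 in shSLX1shSLY (0.64, SE 0.13, adjusted p = 0.0135) against WT. Against shSLX1, shSLX1shSLY was 2.06-fold higher (1.04, SE 0.14, adjusted p = 0.000315), the smallest p among the members in that comparison.

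H3c4 (Hist1h3d, 23575763 to 23576266) lies next to H2ac7 and its start region is printed above. It read 9.89, 9.90, 9.89 and 9.86 in WT, 10.46, 10.53 and 10.78 in shSLY, 9.63, 9.26 and 9.59 in shSLX1 and 10.28, 10.84 and 10.44 in shSLX1shSLY. The WT arrays lay close together, every array with the shSLY transgene was above them and every shSLX1 array below. It rose 1.63-fold in shSLY (log2 difference 0.70, SE 0.15, adjusted p = 0.019) and 1.55-fold in shSLX1shSLY (0.63, SE 0.15, adjusted p = 0.0243) against WT, and was 2.04-fold higher in shSLX1shSLY than in shSLX1 (adjusted p = 0.00136). With the array set as a block, the difference of shSLX1shSLY from WT was 0.42 for H3c4 (adjusted p = 0.488) and 0.57 for H3c6 (adjusted p = 0.191).

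H3c7 (Hist1h3f, 23544052 to 23544954) differed from the other 3 in the double knockdown. It read 9.41, 9.44, 9.37 and 9.34 in WT, 10.03, 10.10 and 9.83 in shSLY, 9.22, 8.76 and 8.65 in shSLX1, but 9.61, 9.68 and 9.55 in shSLX1shSLY. The double knockdown therefore lay between WT and shSLY with no overlap on either side. It rose 1.51-fold in shSLY against WT (log2 difference 0.59, SE 0.14, adjusted p = 0.0365) and was 1.67-fold higher in shSLX1shSLY than in shSLX1 (adjusted p = 0.00916). The steps from WT to shSLX1shSLY (0.22, adjusted p = 0.309) and from shSLY to shSLX1shSLY (-0.37, adjusted p = 0.21) did not pass the test.

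Across the 13 arrays these 4 genes correlated with each other at 0.86 to 0.98, a description over arrays that share groups and sets. Within the first array set, where 2 WT and 2 shSLY arrays can be compared directly, the log2 differences were 0.71 for H3c1, 0.64 for H3c6, 0.64 for H3c7 and 0.60 for H3c4, with adjusted p of 0.0658, 0.0553, 0.0627 and 0.166, so that no call was left at this number of arrays. With the set as a block all 4 were called, at differences of 0.78, 0.69, 0.68 and 0.64. Replicate numbers paired WT and shSLY arrays weakly, and with the replicate number as a block 2 members were called, H3c1 (0.72, adjusted p = 0.0394) and H3c6 (0.70, adjusted p = 0.0311). H3c1 and H3c6 were also called whichever of the 13 arrays was left out, whereas H3c4 was called in 9 and H3c7 in 5 of these 13 fits. Only 2 members, H3c1 and H3c6, were called without WT 3, without WT 4 or without shSLY 2, and 3 members without shSLY 1.

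**Figure D3:**
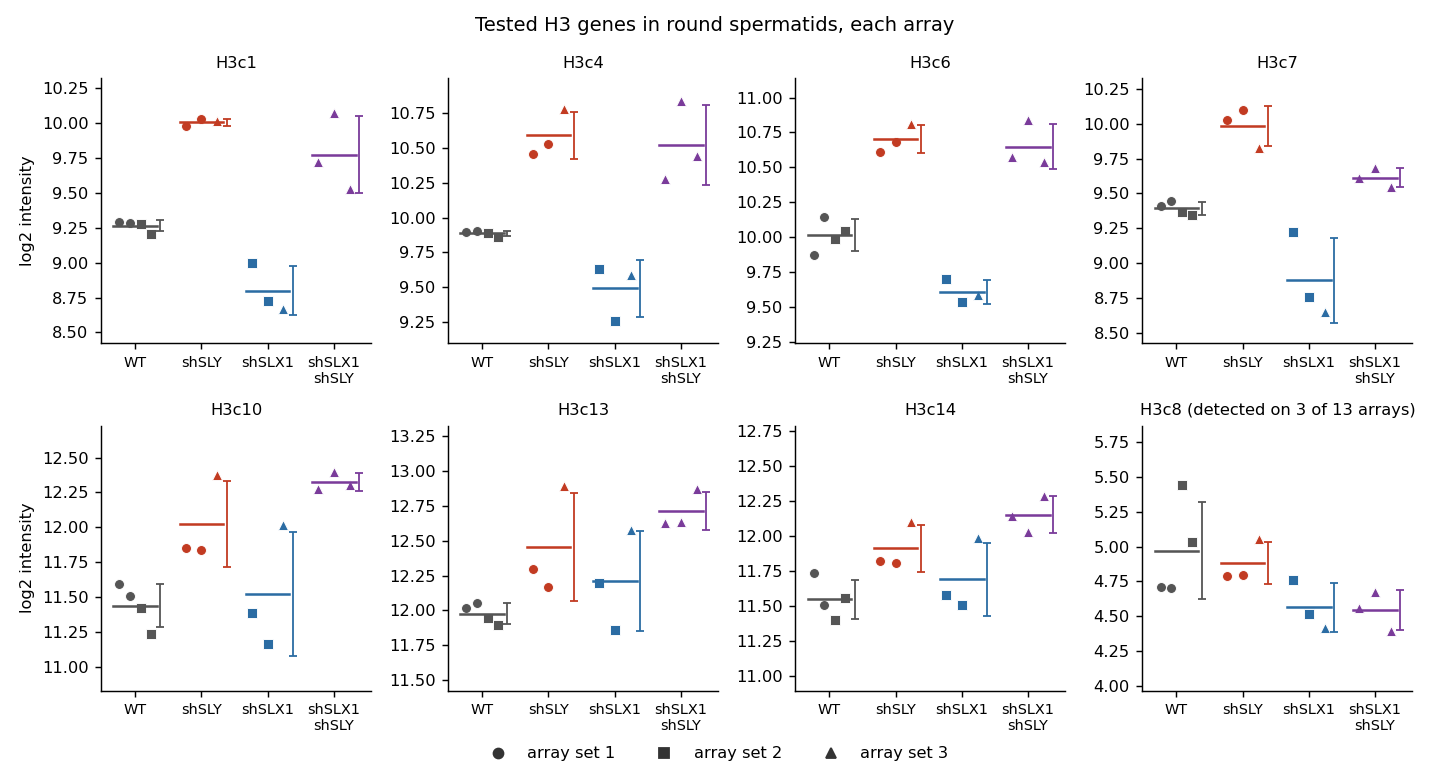
Log2 intensity of the 8 tested H3 genes on each array, by genotype, with the group mean (line) and SD (bar); the marker shape gives the array set and each panel spans the same range of log2 units. H3c1 shSLY arrays read 9.98 to 10.03 against 9.20 to 9.29 in WT, whereas H3c10 reads high on shSLY 3 (12.38) and shSLX1 3 (12.02).

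H3c10, H3c13 and H3c14 were called only in comparisons of the double knockdown and followed a different course. H3c10 (Hist1h3h, chromosome 13, 21717628 to 21718115) read 11.59, 11.51, 11.42 and 11.23 in WT and 12.27, 12.40 and 12.31 in shSLX1shSLY. In the single genotypes it read 11.85, 11.84 and 12.38 in shSLY and 11.38, 11.16 and 12.02 in shSLX1, so that the 2 high arrays were shSLY 3 and shSLX1 3, which belong to the third set with the double knockdown. H3c10 was 1.85-fold higher in shSLX1shSLY than in WT (log2 difference 0.89, SE 0.19, adjusted p = 0.0172) and 1.75-fold higher than in shSLX1 (adjusted p = 0.0281). With the set as a block these differences became 0.25 (adjusted p = 0.593) and 0.31 (adjusted p = 0.232), and within the third set the latter was 0.31 (adjusted p = 0.355).

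H3c13 and H3c14, on chromosome 3, shared this course. H3c13 (96268654 to 96269155) read 12.02, 12.06, 11.94 and 11.89 in WT, 12.30, 12.17 and 12.89 in shSLY, 12.20, 11.86 and 12.58 in shSLX1 and 12.63, 12.64 and 12.87 in shSLX1shSLY. H3c14 (96246685 to 96247348) read 11.73, 11.50, 11.40 and 11.56 in WT, 11.82, 11.81 and 12.10 in shSLY, 11.58, 11.50 and 11.99 in shSLX1 and 12.14, 12.03 and 12.29 in shSLX1shSLY. For both genes shSLY 3 and shSLX1 3 were again the highest of their groups. Against WT the double knockdown was 1.66-fold higher for H3c13 (log2 difference 0.73, SE 0.19, adjusted p = 0.0291) and 1.52-fold higher for H3c14 (0.61, SE 0.15, adjusted p = 0.0261). With the set as a block the differences were 0.13 and 0.24, with adjusted p of 0.847 and 0.641. With 1 array left out in turn, H3c13 was called against WT in 6, H3c14 in 8 and H3c10 in 10 of 13 fits.

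The 3 genes correlated with each other at 0.93 to 0.94 over the 13 arrays, and with H3c1, H3c4, H3c6 and H3c7 at 0.27 to 0.79. These groupings were drawn after the values were seen. Other probes of the same genes did not all follow. A second probe of H3c10, detected on all arrays, correlated with the first at 0.64 and was called higher in shSLY against WT (log2 difference 0.75) and in shSLX1shSLY against shSLX1 (0.98), which was the pattern of H3c1. Among the other 2 probes of H3c14 none was called, and their correlations with the tested probe were -0.05 and 0.01. Over all members, 17 genes had several probes that passed the filter, and of the 21 further probes 4 correlated above 0.9 and 11 below 0.5 with the probe that was tested.

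H3c8, the eighth H3 gene tested, was dim. It was detected on 2 WT arrays, 1 shSLY array and on no array carrying the shSLX1 transgene, at log2 intensities of 4.40 to 5.44 over all arrays. In shSLX1 its fitted log2 difference from WT was -0.41 (adjusted p = 0.374), and the arrays of the 2 groups overlapped. With so few arrays detected, the size of a difference could not be given, and no comparison called it. A fit with the array set as a block gave an adjusted p of 0.0387 in shSLX1 against WT, from shSLX1 values that were not above background.

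Of the 9 H2B genes tested, H2bc21 and H2bc4 were called in at least 1 comparison. H2bc21 (chromosome 3, 96221072 to 96223738) encodes a variant of H2B known from mouse olfactory neurons. It read 8.59, 8.48, 8.08 and 8.15 in WT, 8.96, 9.10 and 8.87 in shSLY, 7.93, 7.73 and 7.75 in shSLX1 and 8.64, 9.03 and 8.88 in shSLX1shSLY. Its groups stood in the same order as those of H3c1, with shSLX1 wholly below WT and shSLY wholly above. It rose 1.57-fold in shSLY against WT (log2 difference 0.65, SE 0.15, adjusted p = 0.0304) and was 2.07-fold higher in shSLX1shSLY than in shSLX1 (1.05, SE 0.16, adjusted p = 0.00117). The call in shSLY was lost with the array set as a block, where the difference of 0.58 fell short of the fold threshold (adjusted p = 0.0296), and within the first array set (0.50, adjusted p = 0.158). It was also lost without WT 3, WT 4, shSLY 1 or shSLY 2, and was made again under 15 of 27 alternatives, whereas the call against shSLX1 was made again under 26. The second probe of H2bc21 correlated with the first at 0.50. It differed by 0.43 in shSLY (adjusted p = 0.409 over every kept probe) and by 0.0023 in shSLX1, where the first probe differed by -0.52. It was called higher in shSLX1shSLY than in WT (0.86, adjusted p = 0.0279) and than in shSLX1 (0.86, adjusted p = 0.0396).

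H2bc4 (chromosome 13, 23684199 to 23692480) read 9.31, 9.14, 9.34 and 9.60 in WT, 9.56, 9.84 and 9.78 in shSLY, 9.33, 9.09 and 9.12 in shSLX1 and 9.69, 10.03 and 9.84 in shSLX1shSLY. The shSLY and WT arrays overlapped, through WT 4 and shSLY 1, while no shSLX1shSLY array overlapped shSLX1. It was 1.59-fold higher in shSLX1shSLY than in shSLX1 (log2 difference 0.67, SE 0.15, adjusted p = 0.0156), and 1.42-fold higher than in WT at an adjusted p of 0.0398, short of the fold threshold. Within the third array set, which held 1 shSLX1 array, the first of these differences was 0.73 (adjusted p = 0.0671, with the lone array taken to vary like the other groups). Without shSLX1 2, shSLX1shSLY 2 or shSLX1shSLY 3 the call was lost as well, at 0.59 to 0.68.

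Of the 12 H4 genes tested, H4c11 and H4f16 were called. H4c11 (chromosome 13, 21735034 to 21735456) read 9.29, 9.28, 9.57 and 9.33 in WT, 9.84, 9.95 and 10.03 in shSLY, 9.44, 9.10 and 9.01 in shSLX1 and 9.93, 10.06 and 9.68 in shSLX1shSLY. Both genotypes with the shSLY transgene stood above all WT arrays, and shSLX1 overlapped WT, in which WT 3 stood apart. It was 1.63-fold higher in shSLX1shSLY than in shSLX1 (log2 difference 0.71, SE 0.16, adjusted p = 0.0128). In shSLY against WT it passed the p threshold (adjusted p = 0.0458) at a fold change of 1.49, just under the threshold of 1.5. With the array set as a block it was called there (0.67, adjusted p = 0.0198), and within the first set it was not (0.61, adjusted p = 0.106).

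H4f16, the lone member on chromosome 6 (136803993 to 136804431), was dim. It read 5.39, 4.97, 4.71 and 5.01 in WT, 5.53, 5.47 and 5.53 in shSLY, 4.74, 4.35 and 4.80 in shSLX1 and 5.76, 5.62 and 6.0 in shSLX1shSLY, and it was detected on no shSLX1 array. All shSLX1shSLY arrays were above all other arrays. It was 1.71-fold higher in shSLX1shSLY than in WT (log2 difference 0.77, SE 0.17, adjusted p = 0.0174), of which 0.63 remained with the set as a block (adjusted p = 0.269). Against shSLX1 it was at least 1.80-fold higher, a bound taken from the dimmest detected signal because shSLX1 gave none. The fitted log2 difference was 1.16 (adjusted p = 0.00113).

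H4c1, H4c3, H4c6 and H4c9 correlated with each other at 0.94 to 0.98. H4c3 read 8.11, 8.11, 7.77 and 7.92 in WT, 8.43, 8.66 and 8.08 in shSLY, 7.80, 7.35 and 6.95 in shSLX1 and 7.73, 7.92 and 7.63 in shSLX1shSLY. The shSLX1 arrays spread widely here and shSLX1 1 overlapped WT. Its log2 difference in shSLX1 was -0.61 (adjusted p = 0.179), and without shSLX1 1 it was -0.83 (adjusted p = 0.0489), when H3c7 was called lower as well. With the array set as a block, H4c1, H4c6 and H4c9 were called higher in shSLY against WT, at differences of 0.64, 0.63 and 0.69, and these 3 with H4c3 were called higher in shSLX1shSLY against shSLX1, at 0.70 to 0.91. In the fit without the set none of the 4 was called in any comparison.

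No H2A gene was called, and on the tested probes 5 of them varied widely within the groups. H2ac12 (chromosome 13, 22035122 to 22035643) read 8.55, 8.51, 7.43 and 7.67 in WT, 8.57, 10.06 and 7.54 in shSLY, 9.06, 8.45 and 7.60 in shSLX1 and 6.88, 7.24 and 7.44 in shSLX1shSLY. Its highest array was shSLY 2, and within WT the 2 arrays of the first set were above the 2 of the second. H2ac7 (23574381 to 23574915) read 8.99 to 10.26 in WT, 9.54 to 11.62 in shSLY, 9.65 to 10.66 in shSLX1 and 9.03 to 9.50 in shSLX1shSLY, with the same array highest. H2ac7, H2ac12, H2ac15, H2ac22 and H2ac24 correlated with each other at 0.95 to 0.99 over the 13 arrays. No comparison called any of the 5.

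The median of these 5 genes, as a log2 difference from the WT mean, was 0.30, 0.51, -0.62 and -0.18 in WT and 0.71, 1.94 and -0.16 in shSLY. It was 1.02, 0.43 and -0.05 in shSLX1 and -0.67, -0.27 and -0.36 in shSLX1shSLY. Only WT overlapped the double knockdown, and the single genotypes lay above it on every array. Hemoglobin Hba-a1, the only red blood cell marker of 5 that was tested, was also highest on shSLY 2, at a log2 intensity of 10.20, and next on shSLY 1 and WT 2, at 9.50 and 9.42, where the other 10 arrays read 5.67 to 7.74. Its part in the H2A values was not tested.

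**Figure D4:**
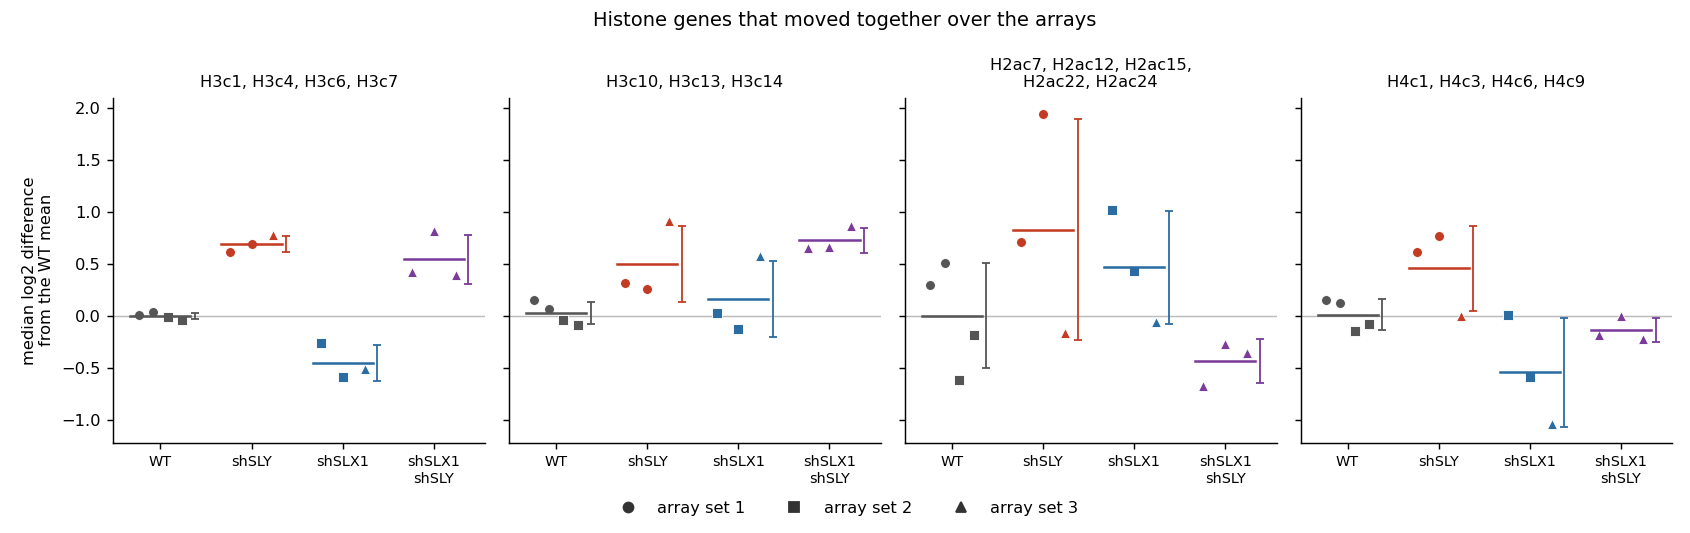
Median log2 difference from the WT mean on each array for 4 groups of genes drawn after the values were seen, namely H3c1, H3c4, H3c6 and H3c7, then H3c10, H3c13 and H3c14, then 5 H2A genes, then H4c1, H4c3, H4c6 and H4c9. The first group lies at 0.62 to 0.77 in shSLY and -0.58 to -0.26 in shSLX1, and the H2A group ranges from -0.16 to 1.94 within shSLY.

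A single array decided the comparison of the double knockdown with shSLY for these genes. With all arrays H2ac12 differed by -1.54 (SE 0.51, adjusted p = 0.151) and H2ac22 by -1.25 (SE 0.38, adjusted p = 0.137). Without shSLY 3, 11 members were called lower in shSLX1shSLY than in shSLY, and they were the 5 H2A genes, H2bc7, H2bc15, H4c1, H4c3, H4c6 and H4c17. H2ac12 then differed by -2.13 (adjusted p = 0.0155). With arrays weighted by their quality the same 11 and H4c9 were called. Array shSLY 3 is the shSLY array of the third set, which holds the double knockdown. Without it the shSLY arrays left were all of the first set, so genotype and array set could not be told apart. The share of all genes called in these fits is not given here, so the counts are not read as a result about histone genes.

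On their tested probes the other H2A genes varied less. A further probe of H2ac13 read 8.51 to 10.63 in shSLY and one of H2ac10 read 8.57 to 10.24, both highest on shSLY 2. They differed by -1.49 and -1.08 in shSLX1shSLY against shSLY and were not called. The further probes of H2ac18 differed there by -0.28 and 0.0025, and that of H2ac20 by -0.78. The split of the H2A genes thus depended partly on the probe. H2ac11 (22042478 to 22042949) read 5.70, 5.82, 5.06 and 5.39 in WT, 5.85, 6.67 and 5.94 in shSLY, 6.07, 5.77 and 5.29 in shSLX1 and 5.72, 6.10 and 5.48 in shSLX1shSLY. Its shSLY arrays lay just above WT, with a log2 difference of 0.66 (SE 0.25, adjusted p = 0.207). H2ac19, on chromosome 3 (96239779 to 96240374), read 14.27, 14.23, 13.97 and 13.93 in WT, 14.26, 14.34 and 13.98 in shSLY, 13.54, 13.69 and 13.72 in shSLX1 and 13.90, 13.92 and 13.99 in shSLX1shSLY. It was the H2A gene with the smallest p in shSLX1, where all arrays were below WT at a difference of -0.45 (SE 0.14, adjusted p = 0.153).

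H2A and H2B genes of these clusters often stand head to head and share a start region. Of 4 such pairs with both genes tested, H2ac7 and H2bc7 shared 273 bases of their promoter windows and correlated at 0.71 over the 13 arrays, so that the H2ac7 sequence printed above also precedes H2bc7 on the other strand. H2ac15 and H2bc15 shared 263 bases and correlated at 0.70. H2ac12 with H2bc12 (277 bases) and H2ac11 with H2bc11 (252 bases) correlated at 0.34 and 0.30.

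The linker histones were near the limit of detection. H1f2 was detected on 7 arrays and read 4.56 to 5.16 in WT, 5.06 to 5.37 in shSLY, 4.75 to 5.08 in shSLX1 and 4.66 to 5.12 in shSLX1shSLY. H1f5 was detected on 8 arrays, at 4.70 to 5.0 in WT and at 4.87 to 5.34 in shSLX1shSLY, where its difference of 0.28 gave an adjusted p of 0.204. The groups overlapped for both genes in every comparison, and none was called.

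Whether the shSLY transgene acted differently with and without the shSLX1 transgene was tested as an interaction. By limma no member was called, where 1.37% of all genes were, and 6 members had an unadjusted p under 0.05, against 9.93% of all genes. The interaction was above 0 for 18 of the 43 members, against 52.8% of all genes, and for all 8 H3 genes, with a median of 0.18, and its median was -0.43 for H2A. The double knockdown shares no array set with WT, and with the set as a block these signs changed. The interaction was then above 0 for 6 of the 8 H3 genes (median 0.15), and the H2A median was -0.32. Of the 12 H4 genes 10 were then above 0, against 4 without the set. Singly, H2ac22 gave -1.77 (SE 0.52, adjusted p = 0.156), and -2.21 (adjusted p = 0.0236) without shSLY 3. H4f16 gave 0.68 (adjusted p = 0.331).

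The genes whose levels ran most closely with the H3 genes over the 13 arrays were sex-linked. The 5 highest Pearson correlations with the mean of the 8 H3 genes were those of Pja1 (0.983), Tspan6 (0.979), Klhl15 (0.978) and Cypt1 (0.967), all X-linked, and of the Y-linked Gm21943 (0.966). Pja1 differed from WT by 0.81 in shSLY, -0.30 in shSLX1 and 0.73 in shSLX1shSLY on the log2 scale. With the mean of H3c1, H3c4, H3c6 and H3c7 the 5 highest were Wdr13 (0.980), Klhl15 (0.975), Sh3kbp1 (0.968), Rnf138rt1 (0.965) and Yipf6 (0.962), all on the X chromosome. The H3 genes themselves are autosomal. The correlations keep the differences between group means, so genes that share an order of the groups rank high. A link between them was not tested. The 5 H2A genes ran most closely with Dok2 (0.918), Zdhhc8 (0.915), the replication helicase subunit Mcm5 (0.907), Ppp1ca (0.895) and Rad51d (0.885).

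Of 15 genes that act in making and processing histone mRNA, 11 were tested, and the stem-loop binding protein Slbp was not. Cstf2, the X-linked cleavage factor subunit that binds pre-mRNA at its 3′ end, read 6.08, 6.59, 5.91 and 6.21 in WT, 7.51, 7.31 and 6.74 in shSLY, 5.85, 5.49 and 5.64 in shSLX1 and 6.17, 6.79 and 6.50 in shSLX1shSLY. It rose in shSLY against WT (log2 difference 0.99, SE 0.21, adjusted p = 0.0166) and was higher in shSLX1shSLY than in shSLX1 (0.82, adjusted p = 0.0363). The cap-binding subunit Ncbp2 was also higher in the latter comparison (0.67, adjusted p = 0.0375), and Cpsf2, detected on 5 arrays only, was called lower in shSLX1shSLY (4.29 to 4.34) than in WT (4.84 to 5.42, adjusted p = 0.0281).

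Among histone chaperones 1 of 14 tested was called. Chaf1b, a subunit of the CAF-1 complex that deposits H3 and H4 on newly copied DNA, read 7.57, 7.47, 7.68 and 7.53 in WT, 6.50, 6.63 and 6.45 in shSLY, 7.54, 7.71 and 7.17 in shSLX1 and 6.48, 6.32 and 6.51 in shSLX1shSLY. Both genotypes with the shSLY transgene were below all other arrays. It fell in shSLY against WT (log2 difference -1.03, SE 0.14, adjusted p = 0.000756) and in shSLX1shSLY against WT (-1.13, SE 0.14, adjusted p = 0.0016) and against shSLX1 (-1.04, SE 0.15, adjusted p = 0.000664).

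Of 10 replacement histone genes tested, H3f3b, which encodes H3.3, rose in shSLY (log2 difference 0.61, SE 0.15, adjusted p = 0.0426), and the linker variant H1f10 rose in shSLX1shSLY (0.87, SE 0.21, adjusted p = 0.0232), both against WT. No other was called in any comparison, and H3f3a, which also encodes H3.3, had a mean of 12.46 in shSLY and 12.52 in WT. H1f10 read 8.08 to 8.28 in WT, 8.69, 8.97 and 9.12 in shSLY, 7.83, 8.25 and 8.93 in shSLX1 and 8.94 to 9.21 in shSLX1shSLY. Arrays shSLY 3 and shSLX1 3, of the third set, were the highest of their groups, and for this call genotype and array set cannot be told apart. None of the 3 testis-specific histones tested was called.

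Of 20 genes that mark dividing cells in S phase, 18 were tested. None was called in shSLY or shSLX1 against WT, where 2.33% and 1.67% of all genes were called higher. The median log2 difference of the 18 from the WT mean lay between -0.12 and 0.18 in WT, -0.05 and 0.14 in shSLY, -0.01 and 0.10 in shSLX1, and -0.10 and 0.01 in shSLX1shSLY. In shSLX1shSLY against WT, Pcna, the replication clamp, rose by 1.05 (adjusted p = 0.0217) and Tyms, thymidylate synthase, by 0.74 (adjusted p = 0.025). These were 2 of the 18, where 4.86% of all genes were called higher and 4.03% lower. Pcna was detected on 9 arrays and also read high on shSLX1 3 and shSLY 3, at 5.72 and 5.56 against 4.55 to 5.32 in WT. Against shSLX1, Tyms rose while Ccne2 and Cdt1 fell, where 3.56% of all genes were called higher and 3.98% lower.

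Other cells were marked by few detected genes. None of 7 pachytene spermatocyte markers, 4 Sertoli cell markers or 3 Leydig cell markers tested was called in any comparison. Of 6 spermatogonial markers Sohlh1 was lower in shSLX1shSLY than in shSLX1 (log2 difference -1.11, adjusted p = 0.00515) and was called in the interaction. Of 3 peritubular myoid markers Myh11, detected on 4 arrays, read 5.75, 6.07 and 5.85 in shSLX1 and 4.42 to 4.98 on the other 10 arrays. It was called higher in shSLX1 than in WT, lower in shSLX1shSLY than in shSLX1 and in the interaction. Its shSLX1 arrays were the brightest, so these calls are not independent of the filter, which asked for 3 detected arrays. Of the other myoid markers, Acta2 had a mean of 7.04 in shSLX1 and 5.82 in WT, and Des had 4.70 and 4.77. Neither was called. Of 8 macrophage markers Adgre1 was higher in shSLX1shSLY than in WT (0.90, adjusted p = 0.0405) and than in shSLX1 (1.00, adjusted p = 0.0375). The median of the 8 went the other way, at -0.10 against WT and -0.19 against shSLX1. The lowest of them were at -0.89 and -1.47. The median log2 difference of the 4 Sertoli cell genes from the WT mean lay between -0.38 and 0.41 in WT, 0.10 and 0.49 in shSLY, -0.60 and -0.42 in shSLX1, and -0.44 and 0.27 in shSLX1shSLY, so that shSLX1 lay below WT as it did for H3. Amh and Wt1, which define these cells, were not among the genes tested. For the 3 Leydig cell genes it was -0.01 to 0.08 in WT and 0.21 to 0.74 in shSLY, and Star and Hsd3b1 were not tested. The part of these cells in the histone values was not tested.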

How the data were processed

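RNA of 13 round spermatid batches was labelled from its poly(A) tail and hybridised to Illumina mouse whole-genome BeadChips, with 4 WT, 3 shSLY, 3 shSLX1 and 3 shSLX1shSLY arrays. The authors deposited probe intensities that had not been normalized, exported from GenomeStudio 2011.1 per the submitters' processing notes, with a detection p-value for each probe and array, which the scanner software derived from negative control beads. A second table of the authors' normalized values served as an alternative only.

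Intensities were background corrected, quantile normalized and put on the log2 scale with neqc of limma 3.58.1 in R 4.3.3 (offset 16), and sorted with Python 3.11.15. Of 45281 probes, 20250 were kept, with detection p-values under 0.05 on 3 arrays or more. Probes were named from the platform's annotation, which gave 1 gene for 34885 probes, several for 18 and none for 10378, and 34807 matched the reference's genes. The brightest kept probe stood for a gene, so that 14660 genes or unnamed probes were tested. One mean per group was fitted to all 13 arrays (9 residual degrees of freedom) with lmFit and eBayes, and p-values were adjusted after Benjamini and Hochberg over all 14660. The script was tested on simulated data. Per the methods each batch was purified from pooled testes of several males, so p-values measure the spread between such pools. For a comparison within an array set, 1 mean per group and set was fitted to all 13 arrays, which share 1 estimate of the spread.

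The members, the gene lists and the tests were chosen with earlier results of these data known. Values on all arrays are given for members called in any comparison and for the 2 of each type with the smallest p against WT, and H3c8, H4c3, H2ac7 and H2ac12 were named after their values were seen. Deviations of same-numbered arrays from their group means correlated at 0.11, 0.25 and 0.25 for WT with shSLY and at 0.17, 0.27 and 0.46 for shSLY with shSLX1. For WT with shSLX1 they were -0.05, -0.19 and -0.17, and with shSLX1shSLY they ran from -0.04 to 0.05. The numbers thus gave no regular pairing, and a fit with the number as a block was run as an alternative. Array sets were made by clustering the signals of undetected probes and cutting at 3 sets, and were used as a block and for comparisons within a set. Other alternatives were background correction, scaling, filters, probe choice, array weights and leaving out each array.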

Additional observations from a re-analysis of the deposited data

Results flagged for a closer look

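Among 20 groups of 4 arrays checked, WT replicate 3 stood apart from the other WT arrays for H4c11, at a log2 intensity of 9.57 where they read 9.28, 9.29 and 9.33. Chance sets apart about 1 in 20 such groups.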

How the results depend on the processing

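The 20 differences called were recomputed under 27 alternatives. Of 532 values 430 were called again, 102 were not and 0 changed sign, and median scaling alone lost 16 of the 20. The cause was not tested. In shSLY against WT, 5 members were called, and the number was 3 without background correction, 3 with the authors' normalized values, 0 with median scaling, 2 with the replicate block, 8 with the array set blocked, 0 within the array set and 2 to 5 with an array left out. In shSLX1 against WT, where none was called, the number was 1 with the array set blocked, 1 with arrays weighted by quality and 0 to 2 with an array left out. In shSLX1shSLY against WT, the 6 higher became 0 with the array set blocked, 10 with no fold threshold, 5 lower and none higher with median scaling, and 2 to 6 with an array left out. There it was 3 without WT 2 or WT 3, and 2 without any one of the shSLX1shSLY arrays. In shSLX1shSLY against shSLY none became 12 with array quality weights and 0 to 11 with an array left out. Against shSLX1, 9 became 4 with median scaling, 5 with only the groups compared in the fit and 6 to 11 with an array left out. In the interaction none became 2 with array quality weights and 0 to 1 with an array left out. The replicate block changed no count of calls by over 1.5 times in the other comparisons. The share of all genes called under these alternatives is not given here.

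The type medians also moved. In shSLX1 against WT the H1 median (0.049) was 0.024 without background correction, 0.022 with an offset of 50, -0.028 with median scaling, 0.023 with the authors' values, 0.018 with no detection filter, 0.11 with every kept probe, -0.013 with the replicate block, 0.083 with the array set blocked, 0.13 within the set, 0.012 with array weights and -0.013 to 0.086 with an array left out. With median scaling, H2A (0.11) was -0.25, H2B (-0.21) was -0.56, H3 (-0.40) was -0.59 and H4 (-0.24) was -0.47. H2A was 0.40 within the set, and H4 was -0.44 among genes with a detection p under 0.01 on all arrays. In shSLX1shSLY against WT, median scaling gave -0.58 for H2A (-0.16), -0.76 for H2B (-0.32), 0.16 for H3 (0.62) and -0.42 for H4 (-0.01), and blocking the array set gave 0.46, 0.054, 0.34 and 0.39. H2A was -0.066 with no detection filter, -0.23 with every kept probe and -0.22 with array weights, and H2B was -0.23 with the authors' values and -0.092 with no filter. The number of arrays limits precision, and 9 of the 43 members were not detected on every array.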
